A study of Homo sapiens with 12 samples.

Results

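YAP-TEAD signalling was examined through 10 genes of the deposited expression table, which lists 23346 genes. The 10 were taken by symbol: the coactivators YAP1 and WWTR1, the DNA-binding factors TEAD1 and TEAD4, the target genes CTGF, CYR61, ANKRD1 and AXL, and the feedback genes AMOTL2 and LATS2. The list is one of known pathway genes, put together with earlier results of these data known. All 10 were found in the table and all 10 passed the filter on low values, a mean of at least 0.1 RPKM (reads scaled by gene length and library size) over all samples, which 16236 genes passed.

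SW1990 and CFPAC-1 are established lines of human pancreatic adenocarcinoma, grown here as monolayers in serum. In each line a fraction of cells carries the surface antigen bound by the monoclonal antibody GCTM-5, and the study asked how the antigen positive and antigen negative cells of 1 line differ. Cells were dissociated, stained with the antibody in suspension and separated by flow cytometry, with gates set on the highly positive and on the negative cells, so that intermediate cells are in neither group. RNA-seq of poly(A) RNA was then carried out on 3 samples in each of 4 groups, which were GCTM-5 negative and GCTM-5 positive SW1990 cells and GCTM-5 negative and GCTM-5 positive CFPAC-1 cells, with no other treatment or genetic change between them. The samples came from triplicate sorts. Nothing in the labels says that the sorts were made from separate cultures, so p-values measure the spread between these samples, which may be technical.

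Library totals, recovered from the RPKM values, were 9969697 to 26159330 reads. Reads of the listed genes made up 99.93% to 99.96% of them, so reads outside genes may not be counted. The smallest library was replicate 3 of positive CFPAC-1, which was the lowest of its group for 7 of the 10 genes. The SW1990 samples were also ordered in common. In positive SW1990, replicate 1 was the highest of its group for 9 of the 10 genes and replicate 2 the lowest for 8. In negative SW1990, replicate 1 was the highest for 8 and replicate 3 the lowest for 7. Epithelial markers were present in every group, with KRT8 at mean levels of 721 to 2776 RPKM and EPCAM at 21.7 to 237. Of 8 fibroblast markers, COL1A2, COL3A1, DCN and THY1 were under 0.1 RPKM in all 4 groups, and the other 4 were highest in negative SW1990, at means of 13.2 RPKM for LUM, 3.57 for COL1A1, 1.92 for ACTA2 and 1.76 for PDGFRB. Of 6 blood and endothelial markers, PTPRC, the pan-leukocyte marker, was under 0.1 RPKM in all groups. CD68 was at means of 21.7 to 138 RPKM, LYZ at up to 64.1 in CFPAC-1 and CDH5 at 15.6 in negative SW1990. The endothelial markers PECAM1 and VWF were at means of 0.717 and 0.202 RPKM in negative SW1990, and lower in the other groups.

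YAP1 and WWTR1, whose product is TAZ, are transcriptional coactivators that do not bind DNA themselves. They enter the nucleus when the kinases of the Hippo cascade are inactive, and act there mainly by binding the TEAD transcription factors. The cascade responds to cell contact, cell shape, attachment and serum, and it acts largely by phosphorylation of the coactivator proteins, which RNA levels do not show. In pancreatic duct cells YAP and TAZ are known for their part in tumour growth and in the response to injury. CTGF and CYR61, now also named CCN2 and CCN1, encode secreted matricellular proteins and are the most widely used readouts of the pathway.

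TEAD factors bind the MCAT element, GGAATG, on either strand. In the RefSeq promoter windows of GRCh38.p14, which run from 250 bases before to 50 bases after an annotated start, 14% of 35116 windows held at least 1 such element and 1.37% held 2 or more. Windows were found for 7 of the 10 genes, 10 windows in all, and each was matched by sequence to GRCh37. The genes without a window in the table are CYR61, TEAD1 and TEAD4. The CTGF window held 3 elements and the ANKRD1 window 2, and these 2 promoters are shown because both genes are known direct targets of TEAD factors and their windows held the most MCAT elements of the 10. The 250 bases before the start are given from 5′ to 3′ on the gene's own strand, with the MCAT elements, and in ANKRD1 also a match to the AP-1 motif TGANTCA, in capitals.
CTGF upstream, GRCh37 chr6:132272513-132272762, minus strand: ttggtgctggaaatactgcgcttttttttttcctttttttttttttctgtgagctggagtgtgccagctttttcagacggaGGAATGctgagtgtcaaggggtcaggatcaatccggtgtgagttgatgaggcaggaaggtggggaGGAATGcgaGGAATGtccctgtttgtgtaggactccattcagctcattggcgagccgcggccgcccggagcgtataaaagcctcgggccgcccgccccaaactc
ANKRD1 upstream, GRCh37 chr10:92680845-92681094, minus strand: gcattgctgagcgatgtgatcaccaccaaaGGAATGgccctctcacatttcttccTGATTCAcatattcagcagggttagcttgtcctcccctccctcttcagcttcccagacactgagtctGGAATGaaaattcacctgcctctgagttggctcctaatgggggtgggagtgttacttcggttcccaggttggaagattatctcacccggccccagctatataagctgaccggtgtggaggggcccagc
Counted from the start, the CTGF elements lie at -169 to -164, -104 to -99 and -95 to -90. Those of ANKRD1 lie at -220 to -215 and -128 to -123, with the AP-1 match at -195 to -189. An AP-1 match occurred in 7.71% of all windows, and none of the 10 windows held a CArG box, the motif of serum response factor, which occurred in 1.29% of all windows. Of the other members, YAP1 held 1 MCAT element at -162 to -157, and LATS2 held 1 at 10 to 15 after the start. AMOTL2 and AXL each held 1, on the strand opposite to the gene, in their second window at -69 to -64 and -212 to -207. No element was found in the windows of WWTR1. A match in these letters is a description of sequence and does not show that a factor was bound.

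The 2 matricellular targets differed between GCTM-5 positive and negative cells, in different ways in the 2 lines. CTGF fell 2.37-fold in positive SW1990 cells and overlapped between the CFPAC-1 populations, whereas CYR61 rose 2.10-fold in positive CFPAC-1 cells and was 1.38-fold lower in positive SW1990 cells. No other member passed the threshold within a line. Genes past 2-fold at an unadjusted p under 0.01 in limma are referred to as called; the study used the same limits of fold and p but does not state whether its p was adjusted. Adjusted p-values here are those of Benjamini and Hochberg over all 16236 genes. In SW1990, 0 of the 10 genes were called higher, against 4.59% of all genes, and 1 was called lower, against 7.48%. In CFPAC-1, 1 was called higher, against 5.65%, and 0 lower, against 4.13%. At an adjusted p under 0.05 with no threshold on the fold, 4 of the 10 differed in SW1990, against 28.2% of all genes, and 1 in CFPAC-1, against 36.5%. With 10 genes, nothing about the list as a whole is read from these counts.

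**Figure D1:**
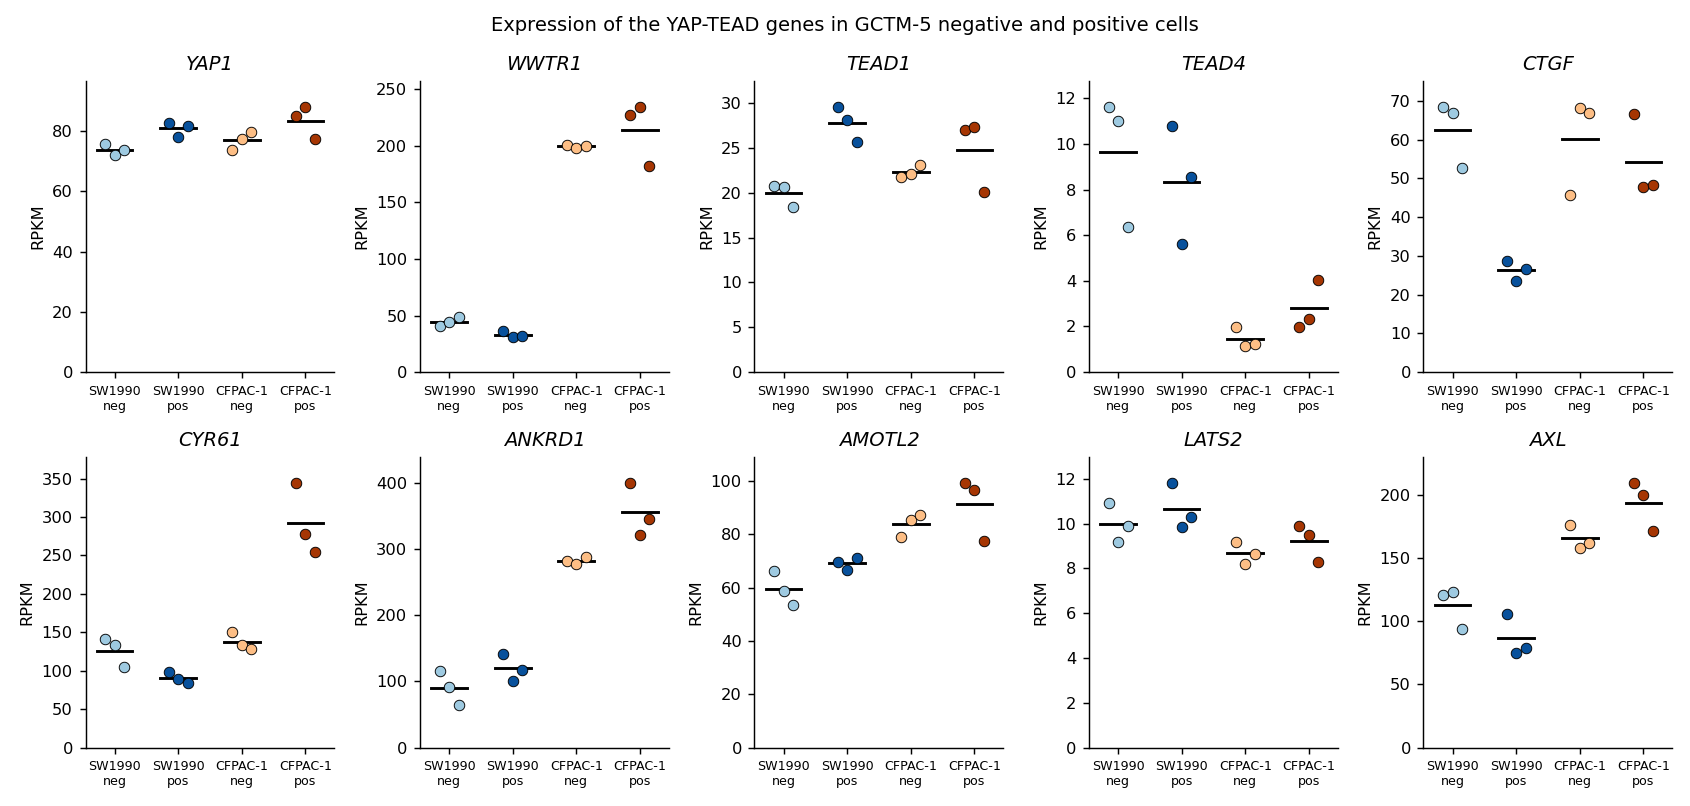
Expression of the 10 genes in RPKM (y axes, from 0) in each of the 12 samples, by group, with the samples of a group drawn in order of replicate number and a bar at the group mean. CTGF was between 23.6 and 28.7 RPKM in positive SW1990 cells and at or above 45.8 in all other samples, and CYR61 was between 254 and 344 RPKM in positive CFPAC-1 cells and at or below 151 in all others.

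YAP1 varied little between groups. It was at 75.6, 72.1 and 73.7 RPKM in negative SW1990, 82.8, 78.1 and 81.7 in positive SW1990, 73.7, 77.2 and 79.7 in negative CFPAC-1, and 84.9, 87.8 and 77.4 in positive CFPAC-1. The 3 positive SW1990 samples lay above the 3 negative ones, while the CFPAC-1 groups overlapped. The log2 change with sorting was 0.13 in SW1990 (95% interval -0.03 to 0.29) and 0.12 in CFPAC-1 (-0.04 to 0.27), with adjusted p of 0.211 and 0.237, and the interval of the difference between these changes ran from -0.21 to 0.24. Neighbouring groups in the order of their means overlapped throughout. YAP1 was above 96.4% to 96.7% of genes in each group.

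WWTR1 separated the lines. Its levels were 40.4, 44.2 and 48.6 RPKM in negative SW1990 and 36.6, 30.7 and 32.2 in positive SW1990, against 201, 198 and 200 in negative CFPAC-1 and 227, 234 and 182 in positive CFPAC-1. Every CFPAC-1 sample was above every SW1990 sample, and the positive SW1990 samples were all below the negative ones. WWTR1 was 4.49-fold lower in negative SW1990 than in negative CFPAC-1 (log2 -2.17, SE 0.110, adjusted p = 7.85e-09) and 6.42-fold lower between the positive populations (log2 -2.68, adjusted p = 2.17e-09). With sorting it was 1.34-fold lower in positive SW1990 cells (log2 -0.42, SE 0.110, adjusted p = 0.0133), which is under the 2-fold threshold, and did not differ detectably in CFPAC-1 (log2 0.10, 95% interval -0.15 to 0.34, adjusted p = 0.535, with the sign turning when each sample was centred on its median). The difference of these changes passed its own test (-0.52, adjusted p = 0.0291), but not with samples centred on their medians (adjusted p = 0.145), with the replicate number as a block (0.0541) or without the intensity trend (0.0517). An antisense gene, WWTR1-AS1, shares 756 exon bases with WWTR1 at a mean of 0.341 RPKM.

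The balance of the coactivators differed by line. The ratio of WWTR1 to YAP1, computed in each sample after the values were seen, was 0.534 to 0.66 in negative SW1990, 0.393 to 0.442 in positive SW1990, 2.5 to 2.72 in negative CFPAC-1 and 2.35 to 2.67 in positive CFPAC-1. It was 1.47-fold lower in positive SW1990 cells with no overlap, at an exact permutation p of 0.1, 2-sided, which is the smallest that 3 samples against 3 allow. All positive SW1990 samples were below the negative ones for WWTR1 and above them for YAP1. The separation of the ratio and its p therefore follow from those values and add no further test. In CFPAC-1 the ratio differed 1.01-fold (exact permutation p = 0.8). Summed YAP1 and WWTR1 was 118 ± 3.46 RPKM in negative and 114 ± 5 in positive SW1990, and 276 ± 2.65 in negative and 298 ± 33.9 in positive CFPAC-1 (SD, n = 3 each).

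**Figure D2:**
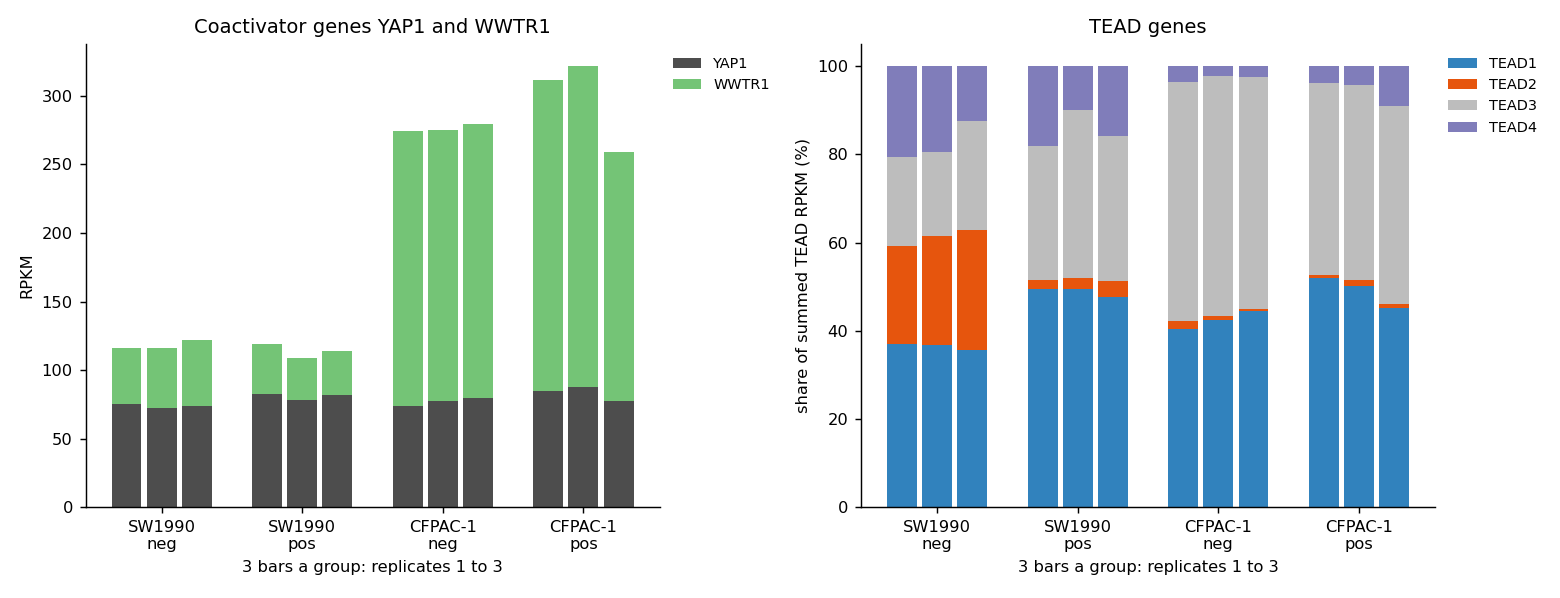
Left, RPKM of YAP1 and WWTR1 stacked for each sample; right, the share of each of the 4 TEAD genes in their summed RPKM (percent), with 3 bars a group for replicates 1 to 3. WWTR1 makes up most of the bar in CFPAC-1, and TEAD2, 22.2% to 27.2% of TEAD RNA in negative SW1990, is at most 3.74% in every other sample.

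TEAD1 was at 20.8, 20.6 and 18.4 RPKM in negative SW1990 and 29.5, 28.1 and 25.6 in positive SW1990. These groups did not overlap, and TEAD1 was 1.39-fold higher in the positive cells (log2 0.48, SE 0.116, adjusted p = 0.00899), under the 2-fold threshold. In CFPAC-1 it was at 21.7, 22.1 and 23.1 RPKM in negative and 27, 27.3 and 20.1 in positive cells, where the third sample, from the smallest library, lay below all negative ones (log2 0.14, adjusted p = 0.385). The difference of the changes did not pass (0.34, 95% interval -0.02 to 0.70, adjusted p = 0.151).

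TEAD4 had the lowest mean of the 10 genes in all 4 groups, though in negative SW1990 it was close to LATS2 (9.65 against 9.99 RPKM). It was at 11.6, 11 and 6.36 RPKM in negative SW1990, 10.8, 5.62 and 8.57 in positive SW1990, 1.97, 1.12 and 1.25 in negative CFPAC-1, and 1.98, 2.34 and 4.04 in positive CFPAC-1. The SW1990 groups overlapped, and all SW1990 samples lay above all CFPAC-1 samples. It was 6.25-fold higher in negative SW1990 than in negative CFPAC-1 (log2 2.64, SE 0.331, adjusted p = 1.75e-05) and 2.95-fold higher between positive populations (log2 1.56, adjusted p = 0.00139). The positive CFPAC-1 samples were all above the negative ones, though 1.98 and 1.97 nearly met, at a log2 difference of 0.87 and an adjusted p of 0.0575. The CFPAC-1 values rest on 53 to 112 reads a sample, and the highest of them, 4.04 RPKM, came from the smallest library. Without that library the log2 difference was 0.58.

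TEAD2 and TEAD3, the other members of the family, were read beside them as part of a list of TEAD and VGLL genes. Summed over all 4 genes, TEAD RNA had group means of 50.2 to 56.8 RPKM, while its make-up varied. TEAD1 was 36.5% ± 0.681 of the sum in negative and 48.9% ± 1.1 in positive SW1990, and TEAD3 21.3% ± 3.06 and 33.7% ± 4.08 (SD, n = 3). The level of TEAD3 was 1.64-fold higher in positive SW1990 cells (adjusted p = 0.00035) and 1.28-fold lower in positive CFPAC-1 cells (adjusted p = 0.023). Samples did not overlap in either line, and both changes were under the 2-fold threshold. TEAD2 fell from 12.5, 13.9 and 14 RPKM in negative SW1990 to 1.28, 1.37 and 2.01 in positive SW1990 (log2 -3.06, SE 0.409, adjusted p = 0.000142), and was between 0.151 and 0.883 RPKM in all CFPAC-1 samples. In CFPAC-1, TEAD3 was the most abundant in negative cells, at 53.8% ± 0.929 of the sum, and TEAD1 in positive cells, at 49.2% ± 3.56.

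VGLL proteins bind TEAD factors at the surface that YAP and TAZ use. VGLL1 rose from 2.48, 1.45 and 4.05 RPKM in negative SW1990 to 61.8, 70.6 and 78.3 in positive SW1990 (log2 4.78, SE 0.339, adjusted p = 1.06e-06). In CFPAC-1 it was at the limit of the depth, with 2 reads in each negative library and 2 to 10 in the positive ones. Of the 6 genes of the list, VGLL2 was at 0 in every library and 5 were tested. In SW1990, 1 was called higher and 1 lower, against 4.59% and 7.48% of all genes, and in CFPAC-1, 0 were called either way, against 5.65% and 4.13%. At an adjusted p under 0.05, 4 of the 5 differed in SW1990, against 28.2% of all genes, and 2 in CFPAC-1, against 36.5%. The median log2 change was -0.41 in SW1990 and 0.07 in CFPAC-1, beside -0.04 and 0.05 over all genes.

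CTGF, a secreted protein that promotes matrix deposition and adhesion, was at 68.3, 66.8 and 52.7 RPKM in negative SW1990 and 28.7, 23.6 and 26.5 in positive SW1990. It was at 45.8, 68.2 and 66.8 RPKM in negative CFPAC-1 and 66.5, 47.9 and 48.2 in positive CFPAC-1. Only the positive SW1990 samples stood apart, below all 9 others, while the other 3 groups overlapped. CTGF fell by 1.24 on the log2 scale in SW1990 (SE 0.175, 95% interval -1.62 to -0.86, adjusted p = 0.000209), a call that held under every alternative setting tried. In CFPAC-1 the log2 difference was -0.15 (-0.53 to 0.24, adjusted p = 0.546). The changes differed between lines (-1.10, SE 0.248, adjusted p = 0.0067), as they did under every alternative setting that gave this value. In these bulk samples, fewer cells that express a gene and less of its RNA per cell cannot be told apart.

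CYR61, the related secreted protein with roles in adhesion and angiogenesis, was at 141, 133 and 105 RPKM in negative SW1990, 98.2, 89.7 and 84.3 in positive SW1990, 151, 134 and 129 in negative CFPAC-1, and 344, 278 and 254 in positive CFPAC-1. The negative populations of the lines overlapped, and from there the positive SW1990 samples lay lower and the positive CFPAC-1 samples higher, both without overlap. CYR61 rose by 1.07 on the log2 scale in CFPAC-1 (SE 0.135, 95% interval 0.78 to 1.37, adjusted p = 0.000167). This stood close to the 2-fold threshold: it was 0.97 with each sample centred on its median and 0.95 without replicate 1 of positive CFPAC-1, both just under 2-fold. In SW1990 it was lower by 0.47 (SE 0.135, adjusted p = 0.0225), under the 2-fold threshold. The difference between lines was -1.54 (SE 0.192, adjusted p = 0.000158), and it passed under every alternative setting that gave this value.

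Relative to CTGF, CYR61 was higher in the positive cells of both lines. The ratio of CYR61 to CTGF, also computed after the values were seen, was 1.99 to 2.06 in negative SW1990 and 3.18 to 3.8 in positive SW1990, 1.72-fold higher in the positive cells. In CFPAC-1 it was 1.93 to 3.29 in negative and 5.17 to 5.8 in positive cells, 2.33-fold higher. Neither pair of groups overlapped, at an exact permutation p of 0.1 in each line, the smallest possible. The highest ratio among negative CFPAC-1 samples, 3.29, was that of replicate 1, the sample with the lowest CTGF of its group. That sample also had the lowest summed level of 14 immediate early genes, at 1384 RPKM against 3240 and 2769 in the other two, with FOS at 216 RPKM against 977 and 805, and the part of this in the CTGF value was not tested. Without it, the log2 difference of CTGF in CFPAC-1 was -0.33 (adjusted p = 0.146).

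**Figure D3:**
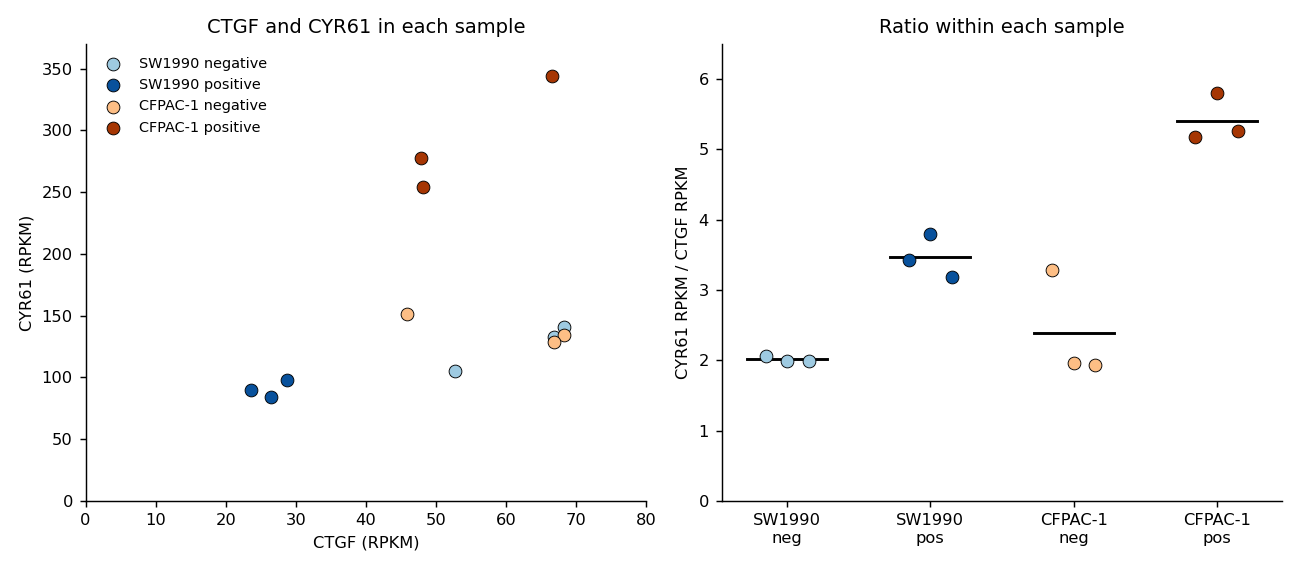
Left, CYR61 against CTGF, both in RPKM from 0, with 1 point a sample coloured by group; right, the ratio of the RPKM values in each sample with a bar at the group mean. Positive SW1990 samples lie to the left of the negative samples and positive CFPAC-1 samples above them, and the ratio is 3.18 or more in all 6 positive samples and 2.06 or less in 5 of the 6 negative ones, the other being 3.29.

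ANKRD1, a nuclear and sarcomeric cofactor and a sensitive YAP target, followed the line more than the sort. It was at 116, 91.4 and 63.9 RPKM in negative SW1990, 142, 101 and 117 in positive SW1990, 282, 277 and 288 in negative CFPAC-1, and 399, 321 and 345 in positive CFPAC-1. The SW1990 groups overlapped, and the CFPAC-1 groups did not. ANKRD1 was 3.21-fold lower in negative SW1990 than in negative CFPAC-1 (log2 -1.68, adjusted p = 6.29e-06) and 2.98-fold lower between positive populations (log2 -1.57, adjusted p = 1.56e-05). With sorting the log2 difference was 0.43 (95% interval 0.03 to 0.84, adjusted p = 0.11) in SW1990 and 0.33 (-0.08 to 0.73, adjusted p = 0.197) in CFPAC-1, so that neither passed. The ratio of ANKRD1 to CTGF was 1.21 to 1.7 in negative and 4.26 to 4.92 in positive SW1990 (3.20-fold, exact permutation p = 0.1, the smallest possible), and 4.07 to 6.16 and 6 to 7.15 in CFPAC-1 (1.39-fold, exact permutation p = 0.2).

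AXL, a receptor tyrosine kinase for the ligand GAS6, was at 121, 123 and 94.1 RPKM in negative SW1990, 106, 74.6 and 78.8 in positive SW1990, 176, 158 and 162 in negative CFPAC-1, and 209, 200 and 171 in positive CFPAC-1. Positive and negative samples overlapped within each line, and every CFPAC-1 sample was above every SW1990 sample. AXL was 2.25-fold lower in positive SW1990 than in positive CFPAC-1 (log2 -1.17, adjusted p = 2.21e-05) and 1.47-fold lower between the negative populations (log2 -0.56, adjusted p = 0.00435). The log2 difference with sorting was -0.39 in SW1990 (adjusted p = 0.0653) and 0.22 in CFPAC-1 (adjusted p = 0.256). The difference of these values was -0.61, with an adjusted p of 0.0451 that rose to 0.149 with samples centred on their medians.

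The feedback genes were called in none of the comparisons. AMOTL2, a scaffold that holds YAP at junctions, was at 53.5 to 66.1 RPKM in negative and 66.7 to 71.2 in positive SW1990, and in CFPAC-1 at 78.8 to 87.1 in the negative and 77.6 to 99.1 in the positive cells. It was lower in SW1990 than in CFPAC-1 by 0.50 on the log2 scale among negative cells (adjusted p = 0.00119) and by 0.39 among positive cells (adjusted p = 0.00703), with no overlap in either. LATS2, the kinase that phosphorylates YAP and TAZ, was at 8.2 to 11.8 RPKM in all 12 samples and overlapped between all neighbouring groups. Its log2 difference with sorting was 0.09 in SW1990 (95% interval -0.15 to 0.34) and 0.08 in CFPAC-1 (-0.16 to 0.32), where the sign turned with centring and with quantile normalization. The sorting differences of AMOTL2 were 0.22 and 0.11, and none of these 4 values passed the test.

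**Figure D4:**
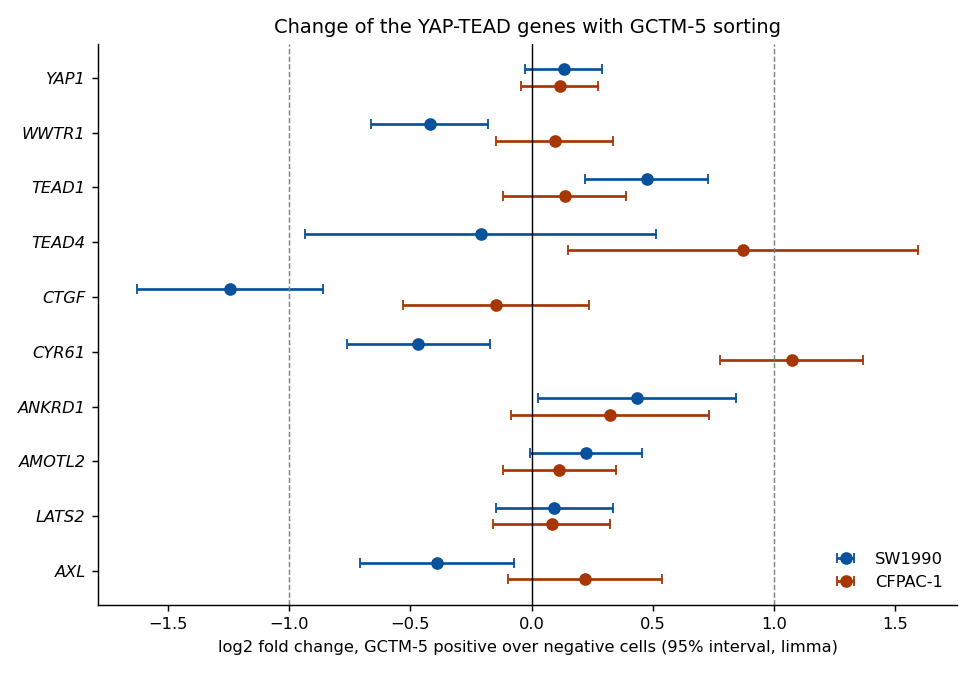
Log2 fold change of the 10 genes, positive over negative cells, in SW1990 and in CFPAC-1 (x axis), with 95% intervals from limma and dashed lines at a 2-fold change. CTGF in SW1990 (-1.24) and CYR61 in CFPAC-1 (1.07) are the 2 points past a dashed line, and the intervals of the lines are separate for CTGF, CYR61 and WWTR1.

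Between the lines, the 10 genes differed more than within them, as did genes at large. Among negative cells 1 of the 10, TEAD4, was called higher in SW1990, against 21.9% of all genes, and 2, WWTR1 and ANKRD1, lower, against 15%. At an adjusted p under 0.05, 5 of the 10 differed, against 68.9% of all genes. Among positive cells 1 was called higher, against 14.8%, and 5 lower (WWTR1, CYR61, ANKRD1, AXL and CTGF), against 13.7%. At an adjusted p under 0.05, 7 of the 10 differed there, against 62.3%. CTGF (log2 0.07, adjusted p = 0.748) and CYR61 (-0.14, adjusted p = 0.389) did not differ detectably between the negative populations, and were 2.04-fold and 3.19-fold lower in positive SW1990 than in positive CFPAC-1. The call of CTGF there was lost without replicate 2 of positive SW1990 (log2 -0.95) or replicate 1 of positive CFPAC-1 (log2 -0.87). The median log2 difference of all genes between negative populations was 0.19, and centring each sample on its median brought it to 0.01. Both comparisons use the same samples as the sorting comparisons, so their values are not independent of them.

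The change with sorting differed between lines for 4 of the 10 genes, all of them more negative in SW1990 (CYR61, CTGF, AXL and WWTR1), against 26.9% of all genes at the same adjusted p under 0.05. The median of this difference was -0.15 over all genes, moved to 0.00 with centring, and the share of higher among all called genes went from 34% to 50%. With centring, CTGF (-0.95) and CYR61 (-1.39) were still called, and AXL and WWTR1 were not. Neither AXL nor WWTR1 was called when any of 8 of the 12 samples, among them all 3 of negative CFPAC-1, was left out.

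The Hippo cascade itself was read from a list of 15 genes of its kinases, scaffolds and upstream regulators. In SW1990, 1 was called higher and 0 lower, against 4.59% and 7.48% of all genes, and 5 of the 15 differed at an adjusted p under 0.05, against 28.2%, with a median log2 change of 0.08 beside -0.04 over all genes. WWC1, the KIBRA scaffold that activates the LATS kinases, was the gene called and rose from 8.66, 7.11 and 5.92 RPKM to 23, 18.6 and 19.9 (log2 1.50, SE 0.131, adjusted p = 5.3e-06). In CFPAC-1 it was between 25.4 and 32.3 RPKM in all samples. There 1 gene was called higher, against 5.65% of all genes, and 0 lower, against 4.13%. It was AMOT, a junctional YAP-binding protein, at 1.33 RPKM in negative and 2.83 in positive cells (log2 1.00, adjusted p = 0.0141), and 4 of the 15 differed at an adjusted p under 0.05, against 36.5%, with a median of 0.14 beside 0.05. AMOT was named after its value was seen, and it was under 2-fold with samples centred on their medians. Of the core kinase complex, named here after the values were seen, STK3, the MST2 kinase, was 1.71-fold higher in positive SW1990 cells (log2 0.78, adjusted p = 9.83e-05) and 1.28-fold higher in positive CFPAC-1 cells (log2 0.36, adjusted p = 0.0148), and its scaffold SAV1 was 1.78-fold higher in positive SW1990 cells (log2 0.83, adjusted p = 1.04e-05), all under the 2-fold threshold and without overlap. In CFPAC-1 the log2 difference of SAV1 was 0.17 (adjusted p = 0.118). MOB1A was 1.21-fold higher in positive CFPAC-1 cells without overlap (log2 0.27, adjusted p = 0.0365), and its log2 difference in SW1990 was 0.08 (adjusted p = 0.573). STK4, LATS1 and MOB1B, and the upstream regulator NF2, had log2 differences of -0.19 to 0.11 in both lines, none of which passed.

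Further targets, a list of 16 genes taken from a published signature of YAP and TAZ activity, went both ways. In SW1990, 1 was called higher and 4 lower, against 4.59% and 7.48% of all genes, with a median log2 change of -0.38 beside -0.04 over all genes. In CFPAC-1, 2 were called higher and 1 lower, against 5.65% and 4.13%, with a median of -0.06 beside 0.05. At an adjusted p under 0.05 the counts were 7 of 16 in SW1990, against 28.2% of all genes, and 8 of 16 in CFPAC-1, against 36.5%. F3, the coagulation initiator tissue factor, rose in both lines, from 169 to 210 RPKM to 625 to 759 in SW1990 (log2 1.92, SE 0.193, adjusted p = 1.53e-05) and from 128 to 162 RPKM to 336 to 624 in CFPAC-1 (log2 1.73, adjusted p = 8.37e-05). TGFB2, a ligand of the TGF-beta family that the study also names from these samples, fell in both lines, from a mean of 26.7 to 12.2 RPKM in SW1990 (log2 -1.11, adjusted p = 1.7e-05) and from 289 to 133 in CFPAC-1 (log2 -1.12, adjusted p = 4.73e-05). CRIM1, a membrane regulator of BMP ligands, fell by 1.58 on the log2 scale in SW1990, from a mean of 81.6 to 27.3 RPKM (adjusted p = 1.52e-05), and had means of 29.7 RPKM in negative CFPAC-1 and 31.8 in positive CFPAC-1. CCDC80, a matrix protein, fell in SW1990 from 3.88 to 1.4 RPKM (log2 -1.41, adjusted p = 0.00187). The others called, named after their values were seen, were RBMS3, lower in SW1990 (1.17 to 0.0235 RPKM), and FJX1, higher in CFPAC-1 (4.72 to 13.3 RPKM).

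**Figure D5:**
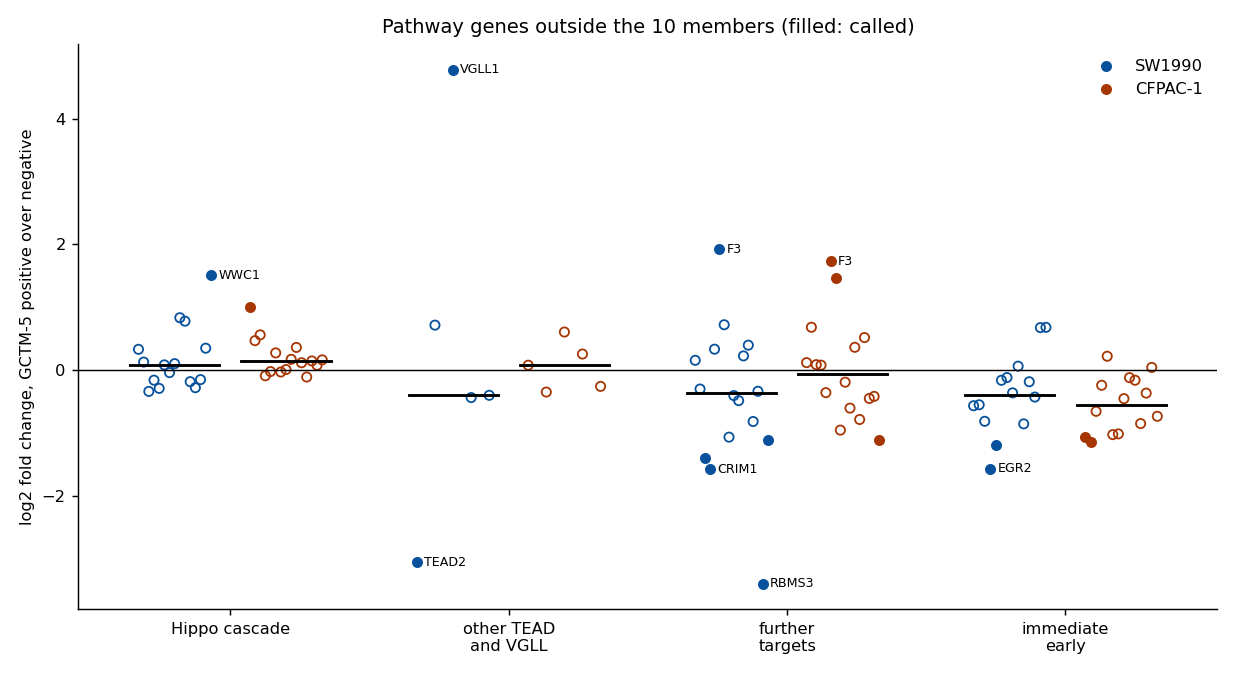
Log2 fold change, positive over negative cells (y axis), of the genes tested in 4 lists outside the 10 genes, in SW1990 and CFPAC-1, with filled points for genes called, bars at the medians and names for genes past 1.5 on the axis. F3 is high in both lines, and the other genes past 1.5 are all in SW1990: VGLL1 (4.78) and WWC1 (1.50) above 0, and RBMS3 (-3.40), TEAD2 (-3.06), CRIM1 (-1.58) and EGR2 (-1.58) below.

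Immediate early genes are switched on within minutes by serum and handling, and several share regulatory inputs with CTGF and CYR61, so their levels were read beside them. Summed over 14 genes they were at 1039 to 1151 RPKM in negative and 914 to 1084 in positive SW1990, and in CFPAC-1 at 1384 to 3240 in the negative and 1380 to 1738 in the positive cells. In each line 0 of the 14 were called higher, against 4.59% of all genes in SW1990 and 5.65% in CFPAC-1, and 2 lower, against 7.48% and 4.13%. These were EGR2 and EGR3 in SW1990, both under 1 RPKM, and ATF3 and DUSP1 in CFPAC-1, named after their values were seen. At an adjusted p under 0.05, 5 of the 14 differed in each line, against 28.2% and 36.5% of all genes. The median log2 change was -0.40 in SW1990 and -0.56 in CFPAC-1, beside -0.04 and 0.05 over all genes.

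Markers of cell type also moved with the sort. Of 6 epithelial genes 5 were called higher in positive SW1990 cells, against 4.59% of all genes, at summed levels of 1595 to 1942 RPKM in negative and 4360 to 4841 in positive cells. In CFPAC-1, 0 of the 6 were called, against 5.65%, at 5411 to 6173 RPKM in negative and 6676 to 8162 in positive cells. At an adjusted p under 0.05, 3 of the 6 differed there, against 36.5% of all genes. KRT7, KRT8 and KRT18 were 1.62-fold to 1.82-fold higher in positive cells at adjusted p of 0.00103 to 0.00649. CDH1 (log2 0.31, adjusted p = 0.115), EPCAM (-0.08, 0.729) and KRT19 (-0.14, 0.361) did not pass. The summed level of 8 fibroblast genes was 14.1 to 24.8 RPKM in negative and 4.96 to 6.39 in positive SW1990, with 4 of the 8 under 0.1 RPKM in negative cells and 5 in positive cells, and it was 2.83 to 3.5 in CFPAC-1. The 6 blood and endothelial genes summed to 49.5 to 65.9 RPKM in negative and 17.4 to 36.2 in positive SW1990 and to 160 to 224 in CFPAC-1, with PTPRC under 0.1 RPKM in every group. The part of these markers in the changes of CTGF, CYR61, TEAD2 and VGLL1 was not tested.

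The genes whose levels ran most like those of a member were found by Pearson's r of log2 RPKM over the 12 samples, among 13266 genes with a mean of at least 1 RPKM, and the samples share lines and sorts, so r describes these 4 groups only. For CYR61 these were RWDD3 (0.985), IGSF3 (0.976) and ENTPD7 (0.971), and IGSF3 had means of 2.68 RPKM in negative CFPAC-1, 9.05 in positive CFPAC-1, 2.22 in negative SW1990 and 1 in positive SW1990. For CTGF they were TOX (0.931), HHEX (0.925) and ZNF438 (0.922), and HHEX, a homeobox factor of endoderm, had means of 57 RPKM in negative SW1990, 3.23 in positive SW1990, 29.6 in negative CFPAC-1 and 26.6 in positive CFPAC-1. For WWTR1 they were HPGD (0.998), FNIP2 (0.998) and ONECUT2 (0.997), all split by line. For YAP1 the most alike were DSP (0.928), PKN2 (0.912) and METTL2A (0.896).

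In GRCh37, with the gene bounds of GENCODE 44, CTGF spans chr6:132269316-132272512 on the minus strand, CYR61 chr1:86046444-86050272 on the plus strand, WWTR1 chr3:149235022-149454501 on the minus strand, YAP1 chr11:101981178-102104155 on the plus strand and TEAD4 chr12:3068496-3149842 on the plus strand. The sources used here do not state whether reads were counted by strand. CTGF shares 278 exon bases with LINC01013 on the opposite strand. YAP1 shares 628 and 11 exon bases with unnamed genes, and AXL 67 with another, also on the opposite strand. AMOTL2 shares 187 with RPL39P5 on its own strand. No level was matched in the table for any of these overlapping genes.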

How the data were processed

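RNA-seq was carried out on 12 samples, 3 in each of 4 groups defined by line and by the GCTM-5 label. Values are RPKM as deposited: the authors used QuasR to quantify reads aligned to the hg19/GRCh37 genome, and scaled by library size and gene length. Their processing notes also name bcl2fastq. The annotation, the use of strand and the treatment of multiply matching reads are not given in the sources used here, and the labels and the methods name different library kits. No column of another sample is in the table.

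Genes with a mean of at least 0.1 RPKM were kept, 16236 of 23346, and limma 3.58.1 in R 4.3.3 was fitted to log2 of RPKM with 0.1 added (4 group means, eBayes with an intensity trend), so fold changes are on that scale, which understates low genes. Genes were called at over 2-fold and an unadjusted p under 0.01 (the study's limits, though it does not say whether its p was adjusted), and the difference between lines at a Benjamini-Hochberg adjusted p under 0.05. TCC, which the study names, was not used. For single values the exact permutation test over samples was used, 2-sided, which cannot go below 0.1 here.

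Whole reads and library totals were recovered from the RPKM values with the lengths of single-exon genes of GENCODE 44. All 19654 genes above 0 came out whole to within 0.01 of a read. Gene lengths were searched for such a fit, so for genes above 0 in few samples some length would fit in any case. The recovery and the fit were tested on simulated data, the recovery only for genes above 0 in several samples. Reads served for depth and for an alternative with voom. Intervals from limma cover the spread between samples. Replicates of a group differed by 6.17 to 37.1 chi-square units per degree of freedom, so that no library was a copy of another.

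Besides the 10 members, the genes named from each pathway list were the called ones of largest change in SW1990 at a mean of at least 1 RPKM, up to 3 in each direction. Members and lists were chosen with earlier results of these data known. Alternatives were other pseudocounts, filters and normalizations, a replicate block, no trend, another call rule, each line fitted alone, voom, and each sample left out. Promoter windows and motifs were read from RefSeq tables with Python 3.11.15.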

Additional observations from a re-analysis of the deposited data

Results flagged for a closer look

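The change with GCTM-5 sorting differed between the lines, by the interaction test of limma at an adjusted p under 0.05, for 9 of the genes named. Each value is the log2 change in SW1990 minus that in CFPAC-1. Among the members it was -1.54 for CYR61 (adjusted p = 0.000158), -1.10 for CTGF (0.0067), -0.52 for WWTR1 (0.0291) and -0.61 for AXL (0.0451). For CYR61 the lines moved in opposite directions without overlap of samples in either. For CTGF the change was in SW1990, and the CFPAC-1 groups overlapped.

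Among the pathway genes it was 4.18 for VGLL1 (adjusted p = 9.64e-05), 1.34 for WWC1 (0.00032), -3.14 for TEAD2 (0.00201), -1.65 for CRIM1 (0.000285) and -1.49 for CCDC80 (0.0128). VGLL1 was at 2 to 10 reads in each CFPAC-1 library, so its value depends on the pseudocount. TEAD2 was at 7 to 40 reads there. Genes named outside that rule were not counted, and several also passed. Among them were TEAD3 (1.065, adjusted p = 0.000385), SAV1 (0.662, 0.00117), STK3 (0.418, 0.0439) and RBMS3 (-2.982, 0.000613). So did several cell type markers, EPCAM, LUM and CDH5 among them. Groups of 3 samples were not examined for outlying samples.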

How the results depend on the processing

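Over 23 alternative settings, 1120 values of the members' changes were recomputed, and 1064 kept their direction and their side of the threshold, while 31 lost a call, 6 gained one and 19 turned in sign. Many of these settings could not move a given log2 value. Examples are another call rule, no intensity trend, and leaving out a sample of a group not compared. The count of values kept is therefore not a measure of how stable the changes are. With adjusted p under 0.05 in place of the 2-fold rule, 1 member was called higher and 3 lower in SW1990, and 4 lower in negative SW1990 against negative CFPAC-1. In CFPAC-1, 0 members were called higher with samples centred on their medians, and 0 to 1 with 1 sample left out, the 0 being without replicate 1 of the positive cells. The difference between lines was called for 2 members, CTGF and CYR61, with centring, without the intensity trend and at an adjusted p under 0.01, and for 2 to 4 with 1 sample left out. It was 2 without 8 of the 12 samples, in each case through AXL and WWTR1.

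No value that turned in sign had passed the test. With centring WWTR1 in CFPAC-1 came to -0.005, LATS2 in CFPAC-1 to -0.017 and CTGF between negative populations to -0.121. Quantile normalization gave -0.038 for LATS2 in CFPAC-1, and voom -0.003 for LATS2 in the difference between lines. With 1 sample left out, TEAD4 in SW1990 ran from -0.483 to 0.046, CTGF between negative populations from -0.119 to 0.187, and the difference between lines from -0.036 to 0.055 for YAP1, -0.121 to 0.309 for ANKRD1, -0.002 to 0.189 for AMOTL2 and -0.065 to 0.074 for LATS2. CTGF between positive populations fell under 2-fold without replicate 2 of positive SW1990 (-0.95) or replicate 1 of positive CFPAC-1 (-0.87). The cause of these changes was not tested.

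Deviations from the group mean, over all genes fitted, were correlated between negative and positive samples of a line. For samples of the same number r was 0.18, 0.02 and 0.12 in SW1990, and -0.02, 0.00 and -0.06 in CFPAC-1. For samples of different number in SW1990 it was -0.25 to 0.16. These weak correlations do not settle whether the number pairs the samples of SW1990. With the replicate block, WWTR1 lost the call of a difference between lines (-0.515, adjusted p = 0.0541), and it changed no other call of a member. Of 15 Hippo genes, 0 were called higher in CFPAC-1 with a pseudocount of 1, centring or quantile normalization, and the 2 immediate early calls in SW1990 were lost in 5 settings that kept all samples, a pseudocount of 1 or 0.01, a mean of at least 1 RPKM, quantile normalization and the block. TEAD4 in CFPAC-1, at 53 to 112 reads, is the member that depth limits most. Voom with TMM factors was not run, and voom on the recovered reads with library totals took its place, chosen after seeing the data, as were the settings recomputed for the pathway lists.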
